A study of Mus musculus with 468 samples.

Results

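The comparison described here is that of epididymal white adipose tissue (EWAT) of db/db-chow mice with EWAT of WT-chow mice, both given vehicle only. Its members are the 20 arrays that the labels name as EWAT, vehicle and chow, out of 468 arrays in the series: 5 of db/db-chow and 5 of WT-chow mice at 2 d, and again 5 and 5 at 5 d. The db/db-chow mice were C57BLKS/J mice homozygous for db, fed chow. The WT-chow mice were C57BL/6 mice, also on chow. All mice of the 4 groups were 8 weeks old males (sex from the methods) that received saline subcutaneously BID, with tissue taken about 6 h after the last injection, and none received FGF21. The day therefore gives the number of days of saline injection, and the 5 d groups repeat the 2 d comparison in other mice. Apart from the db alleles, the 2 models differ in strain, supplier and brand of chow, and the arrays of each model were scaled apart from those of the other, so that genotype, strain, diet brand and array set cannot be told apart in any difference below.

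Leptin is the hormone by which adipocytes report their fat store to the brain. The db allele removes the long, signaling form of its receptor, so db/db mice overeat, become obese early in life and become insulin resistant and hyperglycemic. In obese mice the epididymal depot is known for enlarged adipocytes, for macrophages that gather around dying adipocytes, and for matrix deposition between the cells. Macrophages that take up the lipid of dead adipocytes are known to carry the surface receptors Trem2 and CD11c (Itgax) and to have a large lysosomal compartment.

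Each array holds 43681 probe sets, of which 30342 carry 1 gene symbol and 13339 none. Values are log2 intensity after quantile normalization over the 20 arrays. Within a group the median correlation of an array with the others was 0.987 to 0.992, against 0.963 to 0.971 with arrays of the other model. As deposited, the 95th percentile of intensity was 1151 to 1174 in the db/db arrays and 734 to 776 in the WT arrays, while the medians were 23.5 to 27 and 23.8 to 25.1. Without the quantile step (values "as deposited" below) the median over all probe sets would lie 0.14 higher in db/db. That over the probe sets of highest level (the uppermost of 4 equal bins) would lie 0.57 higher. A number of moderate falls below therefore rest on the scaling. Many are given with both values or with the counts of their list as deposited, and a fall given without them may rest on the scaling too. The defining adipocyte markers were near the top of the range in all 20 arrays, with Adipoq at 12.40 or more. WT 5 d replicate 5 stood apart from the rest in testis transcripts: the summed intensity of 12 epididymis and testis genes was 4447 in it, 1083 in WT 5 d replicate 2 and 163 to 675 in the other 18. Without that array the counts of 35 of the 47 gene lists were the same and those of the other 12 moved by at most 1 in a direction. No detection call was used, so a level near 2 may be no more than background. Bulk RNA cannot tell fewer cells of a type from less RNA per cell, and this holds for each cell type list below.

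A probe set counted as called where its adjusted p was below 0.05 and its fold reached 1.2. At 2 d, 8881 probe sets (20.3%) were higher in db/db and 9563 (21.9%) lower. At 5 d, 8955 (20.5%) were higher and 8763 (20.1%) lower. Called in the same direction at both days were 6587 probe sets (15.1%) higher and 6918 (15.8%) lower, of which 974 (2.23%) and 1006 (2.3%) had at least a 2-fold difference at both days. In 3705 probe sets (8.48%) all 10 db/db arrays lay above all 10 WT arrays, and in 3633 (8.32%) all lay below. The median standard error of a difference (mean of both days) was 0.093. With values as deposited, 74.4% of the calls at both days were higher in db/db, against 48.8% here, 67% after a shift of medians alone and 49.7% after cyclic loess.

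Taking 1 probe set per gene, 3628 of 21931 genes (16.5%) were higher and 3245 (14.8%) lower at both days, with a median difference of 0.013. These are the shares that the gene lists below are read against. Members named from a list were mainly those with the smallest adjusted p, so their lack of overlap is no separate result. In what follows, higher and lower mean called at both days unless values alone are given, differences are db/db minus WT on the log2 scale averaged over both days, and SE is its standard error from 10 against 10 arrays.

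**Figure D1:**
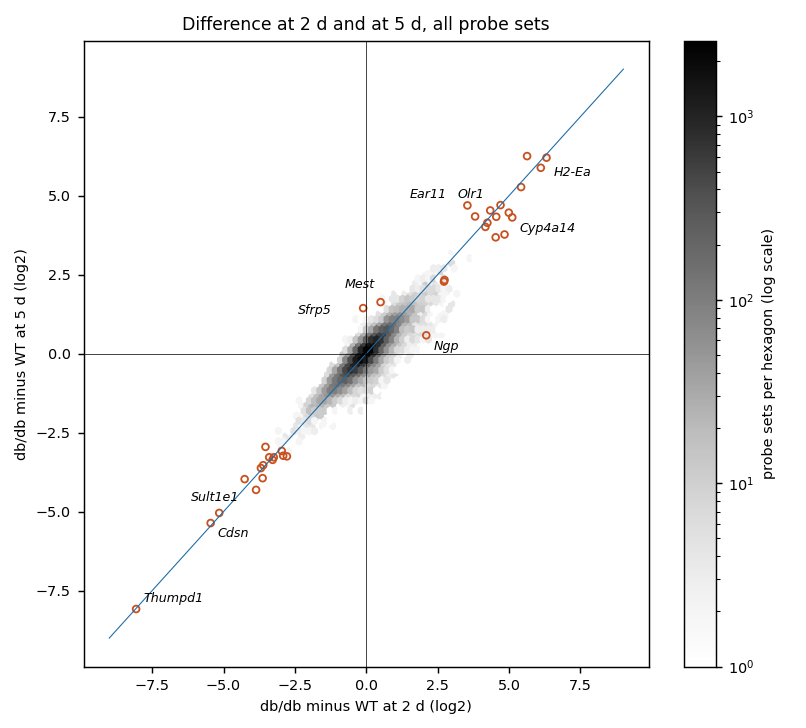
Difference of db/db minus WT at 2 d (x axis, log2) against that at 5 d (y axis, log2) for all 43681 probe sets, shaded by the number of probe sets per hexagon on a log scale; circles mark the 15 highest and 15 lowest genes together with Sfrp5, Mest and Ngp, and the line marks equal values. The probe sets lie along the line from Thumpd1 at -8.06 and -8.08 to H2-Ea at 6.31 and 6.2.

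The comparison repeated closely between the days, as the plot of one day against the other shows. The differences at 2 d and at 5 d had a Pearson correlation of 0.884 over the 43681 probe sets, given as a description, since probe sets are not independent. Of 2965 probe sets past a 2-fold difference at 2 d, 2955 had the same sign at 5 d and 2733 were called there. When each day was fitted on its own, the 6396 probe sets higher at both days were 72.3% of those at 2 d and 75.1% of those at 5 d. The 6572 lower at both days were 68.8% and 78.7%, and 9 were called in opposite directions. The test of the difference between days called 0 of 43681 probe sets (0%), with 3708 at an unadjusted p under 0.05 and a lowest adjusted p of 0.054.

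The genes farthest above WT included an MHC chain, mast cell and neutrophil products, a scavenger receptor and several cytochromes P450. H2-Ea, the alpha chain of the MHC class II molecule E, ranged from 3.66 to 4.20 (median 4.0) in the WT arrays and from 9.99 to 10.57 (median 10.23) in the db/db arrays. The groups lay far apart, at a difference of 6.26 (SE 0.069, adjusted p = 9.7e-26), or 76.5-fold. C57BL/6 mice carry a haplotype of the H2 complex that is known to make no H2-Ea transcript, and C57BLKS/J mice carry another.

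Mcpt2, a chymase of mucosal mast cells, lay between 1.80 and 2.50 in WT (median 2.12) and between 7.72 and 8.54 in db/db (median 8.06), a difference of 6.00 (SE 0.11). In the list of mast cell genes, Kit, Cpa3, Mcpt4 and Cma1 were not called, with differences of -0.11, -0.15, -0.25 and -0.27 (named after their values were seen). The Mcpt2 difference thus came without a difference in those 4 genes that passed the test. Olr1, the receptor for oxidized LDL, ranged from 2.78 to 3.34 in WT (median 3.11) and from 7.41 to 8.32 in db/db (median 7.73), 26-fold higher (difference 4.70, SE 0.091, adjusted p = 7.8e-21). Irg1 (now Acod1), which makes itaconate in activated macrophages, was among the most variable of these genes. It measured 4.34, 3.81, 4.55, 4.32 and 3.74 in WT at 2 d, 4.46, 4.43, 3.92, 4.44 and 4.28 in WT at 5 d, 6.97, 8.69, 8.43, 8.92 and 10.51 in db/db at 2 d, and 9.39, 8.08, 7.48, 9.07 and 9.16 in db/db at 5 d. Every db/db array was above every WT array, although the db/db arrays spanned more than 3 log2 units (difference 4.44, SE 0.30).

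Cyp4a14, a fatty acid omega-hydroxylase, was also spread widely, from 2.98 to 4.48 in WT (median 3.54) and from 7.22 to 10.37 in db/db (median 8.22), with a difference of 4.71 (SE 0.25). Cyp2b13 and Cyp2b9, related P450 enzymes best known from female liver, differed by 4.30 (SE 0.21) and 4.11 (SE 0.25), and as near-identical paralogs they may share signal. Ncan, a chondroitin sulfate proteoglycan of brain matrix, differed by 5.35 (SE 0.16) and Tph2, the serotonin-synthesizing enzyme of neurons, by 5.94 (SE 0.23), from WT levels of 2.08 to 3.12 and 2.74 to 4.85. S100a8, a subunit of the neutrophil protein calprotectin, differed by 4.08 (SE 0.14), Ear11 (now Rnase2a), a ribonuclease of the eosinophil family, by 4.11 (SE 0.21), and Otop1, a proton channel of brown fat, by 4.43 (SE 0.15). The remaining genes among the 15 highest were 6330403K07Rik (4.73), Eif5al3 (4.19, a pseudogene in RefSeq) and 9130204L05Rik (4.09, now S100a7l2). All 15 were chosen as the largest differences among genes whose groups did not overlap, so their lack of overlap is no separate result.

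The genes farthest below WT were led by Thumpd1, an adaptor protein for tRNA acetylation. It measured 10.27, 10.19, 10.33, 10.25 and 10.23 in WT at 2 d, 10.19, 10.32, 10.38, 10.31 and 10.28 in WT at 5 d, 2.04, 2.14, 2.31, 2.21 and 2.28 in db/db at 2 d, and 2.31, 2.36, 2.11, 2.28 and 2.03 in db/db at 5 d. The WT arrays were thus uniformly high and the db/db arrays near the bottom of the scale, at a difference of -8.07 (SE 0.059, adjusted p = 3.8e-29), and Thumpd1 has 1 probe set on the array.

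Sult1e1, the sulfotransferase that inactivates estrogens, ranged from 9.41 to 10.20 in WT (median 9.84) and from 5.14 to 6.76 in db/db (median 5.59), a difference of -4.09 (SE 0.15), or 17-fold lower. Mogat1, a monoacylglycerol acyltransferase, ranged from 9.62 to 10.06 in WT (median 9.74) and from 6.32 to 7.25 in db/db (median 6.74), a difference of -3.01 (SE 0.092), or 8.08-fold lower. Neither gene showed overlap between the models, which is no separate result. The genes farthest below WT were chosen among those whose groups did not overlap. Cdsn, the corneodesmosin of the skin barrier, differed by -5.40 (SE 0.14), Apold1, an endothelial protein, by -5.10 (SE 0.14), Mocs1, an enzyme of molybdenum cofactor synthesis, by -3.07 (SE 0.083), and Pla2g2d, a secreted phospholipase, by -3.02 (SE 0.11). Spock3, an extracellular proteoglycan, differed by -3.79. For Rbms3, an RNA-binding protein, the probe set used fell by 3.57 while its other 2 probe sets were called higher at 0.55 and 0.57, so that the direction for this gene depends on the probe set. The other lowest genes were EG633640 (now Tmem267, -4.12), 2010016I18Rik (-3.66), E130307A14Rik (-3.34), the zinc finger genes 9530015I07Rik (now Zfp872, -3.32) and EG435970 (now Zfp936, -3.24), and 2610312K03Rik (-3.26).

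**Figure D2:**
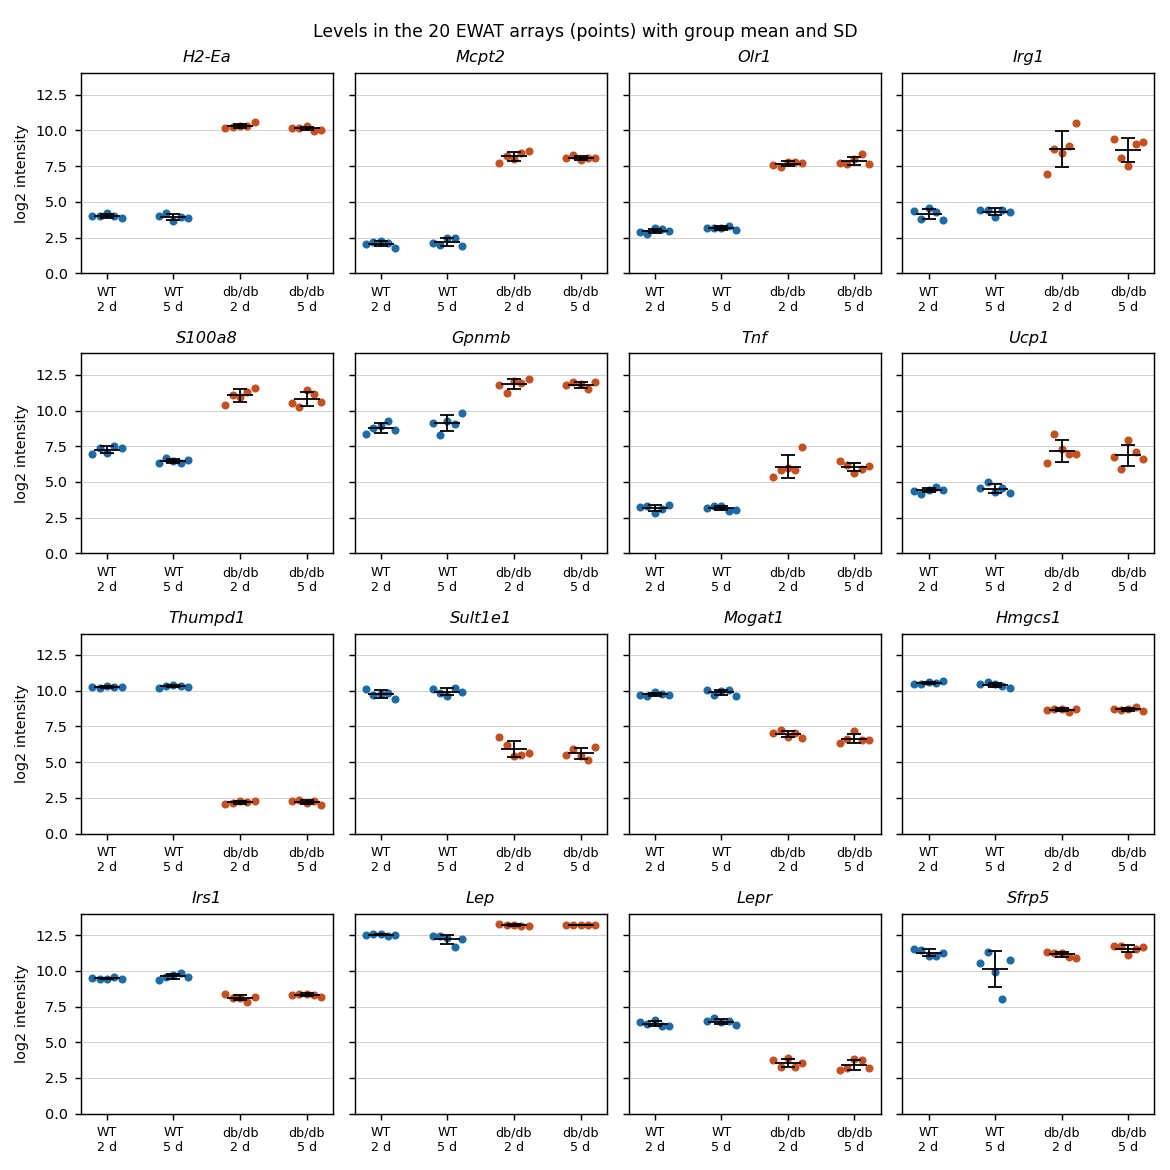
Log2 intensity (y axis) of 16 genes in the 20 EWAT arrays, by model and day (x axis); points are arrays, horizontal bars the group mean and vertical bars the SD (n = 5). The models are apart for 15 of the 16 genes, among them H2-Ea (3.66 to 4.20 against 9.99 to 10.57) and Thumpd1 (10.19 to 10.38 against 2.03 to 2.36), and they overlap for Sfrp5.

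For leptin and its receptor, Lepr was lower and Lep higher in db/db EWAT. The Lepr probe set with the highest level ranged from 6.11 to 6.67 in WT (median 6.39) and from 3.06 to 3.89 in db/db (median 3.43), a difference of -2.90 (SE 0.11, adjusted p = 1.7e-15). Its other 2 probe sets were not called, at 0.22 and -0.45 from levels of 2.57 and 3.35 in WT. Where the probe sets lie relative to the db mutation is not given in the sources used here, so this is no test of the genotype. Lep measured 12.50, 12.58, 12.58, 12.45 and 12.53 in WT at 2 d, 12.43, 12.41, 12.32, 11.68 and 12.26 in WT at 5 d, 13.27, 13.21, 13.21, 13.12 and 13.13 in db/db at 2 d, and 13.21 in all 5 db/db arrays at 5 d. All db/db arrays lay above all WT arrays, at a difference of 0.83 (SE 0.063). Equal values at the top arise because the quantile step gives genes of the same rank the same value, so the spread of the most abundant genes is understated. The difference in Lep was 1.02 as deposited. In the list of 8 leptin signaling genes, 1 was higher and 1 lower, namely Lep and Lepr themselves, with a median of 0.00 (5 higher and 1 lower as deposited, median 0.53).

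The secreted factors of adipocytes went in both directions, with 3 of 17 adipokines higher and 5 lower (median 0.00, or 0.29 with 4 higher and 2 lower as deposited). Cfd (adipsin), an adipocyte serine protease that activates the alternative complement pathway, lay between 13.21 and 13.27 in WT and between 11.84 and 12.41 in db/db (median 12.17). It was 2.19-fold lower, with no overlap (difference -1.13, SE 0.057, adjusted p = 2.6e-13). Retn (resistin) differed by -0.53 (SE 0.037), and by -0.29 as deposited, where it is no longer called. Adiponectin, Adipoq, measured 12.66 to 12.78 in WT and 12.40 to 12.59 in db/db. The 2 ranges did not meet, but the difference of -0.22 (SE 0.023) was under the fold asked for, and it was -0.01 as deposited. Fgf21, the hormone that the series was made to study, had a low level of 4.19 to 4.72 in WT and 4.03 to 4.66 in db/db, its difference being 0.00 (SE 0.095, adjusted p = 0.99). The other lower adipokines were Rbp4 (-0.87), Agt (-0.90) and Nrg4 (-0.68), and the other higher ones Tnf (below) and Saa3 (1.54), these apart from Tnf being named after their values were seen.

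Sfrp5, a secreted Wnt antagonist, was called higher at 5 d (adjusted p = 0.0023) but not at 2 d, and so not at both days. It measured 11.54, 11.48, 11.01, 11.01 and 11.27 in WT and 11.35, 11.25, 11.26, 11 and 10.88 in db/db at 2 d, then 10.55, 11.29, 9.93, 8.06 and 10.77 in WT and 11.77, 11.72, 11.13, 11.50 and 11.68 in db/db at 5 d. The models overlapped at both days, the low values being those of several WT mice at 5 d, and the differences were -0.11 at 2 d and 1.44 at 5 d. Mest, an imprinted gene tied to fat mass expansion, behaved alike: 10.29 to 10.93 in WT at 2 d, 9.01 to 10.30 in WT at 5 d and 10.68 to 11.58 in db/db, with differences of 0.50 and 1.63. Mest was called at both days, but the call ended in 10 of the 20 fits that leave out 1 array, with values of 1.03 to 1.09 in those fits, and without a trend in the prior variance. The difference between days did not pass the test for any of these genes. Of 15 Wnt antagonists and fat expansion markers, 3 were higher and 3 lower (median -0.01, or 0.49 with 5 higher and 3 lower as deposited). Wif1, a Wnt-binding inhibitor, differed by 2.32 (SE 0.14, WT 2.25 to 2.70, db/db 4.04 to 5.59), D430015B01Rik (now Fam13a, a gene linked to fat distribution in humans) by -1.75 (SE 0.12) and Trpv4, a cation channel, by -0.85 (SE 0.088), each without overlap. Dkk2 was higher at 1.15 and Dkk1 lower at -0.59 (named after their values were seen), both being secreted Wnt inhibitors.

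The adipocyte identity genes were near the share of all genes, with 3 of 17 higher and 3 lower (median -0.13, or 0.30 with 10 higher and 1 lower as deposited). Pparg, the master regulator of adipocytes, differed by -0.12 (SE 0.051) and Slc2a4, the insulin-responsive glucose transporter, by -0.26 (SE 0.076), neither of them called, and as deposited both would be above WT, by 0.45 and 0.30. Gpd1, which makes glycerol 3-phosphate, was higher by 0.66 (SE 0.070), and Acvr1c, a receptor of the activin family, was lower at -0.82 (named after its value was seen).

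Fat synthesis genes were called in both directions. In de novo lipogenesis 5.88% were higher and 17.6% lower, and in triacylglycerol synthesis 26.7% and 20%, against 16.5% and 14.8% of all genes. Whether these shares depart from those of all genes was not tested. Of 17 genes of de novo lipogenesis, 1 was higher and 3 lower (median -0.01, or 0.52 with 8 higher and 0 lower as deposited). Pgd, an NADPH-producing enzyme of the pentose phosphate pathway, ranged from 9.62 to 10.11 in WT and from 10.32 to 10.81 in db/db (difference 0.83, SE 0.067). Srebf1, the transcription factor that drives lipogenic genes, ranged from 9.94 to 10.72 in WT and from 9.13 to 9.78 in db/db (difference -0.78, SE 0.076). Both sets of ranges were apart, although the fall of Srebf1, of Aacs (acetoacetyl-CoA synthetase, -0.91) and of Fads1 (fatty acid desaturase, -0.55) was not called as deposited, where the values were -0.17, -0.34 and 0.08, and another probe set of Fads1 was called higher at 0.36. Fasn, fatty acid synthase, was not called (difference -0.17, SE 0.091, 0.19 as deposited). Of 15 genes of triacylglycerol synthesis, 4 were higher and 3 lower (median 0.18, or 0.73 with 11 higher and 3 lower as deposited). Beside Mogat1, the lower ones were Gpam, which starts glycerolipid synthesis (-0.85, SE 0.052), and Pck1, an enzyme of glyceroneogenesis (-0.98, SE 0.086). The higher ones were Gpd1, Lpgat1, a lysophospholipid acyltransferase (0.53, SE 0.042), and, named after their values were seen, the acyltransferases Mogat2 (1.28) and Dgat2 (0.63). Mogat1 and Mogat2, which add the second acyl chain to a monoacylglycerol, thus differed in opposite directions.

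In lipolysis and the lipid droplet, 3 of 14 genes were higher and 3 lower (median 0.03, or 0.47 with 9 higher and 0 lower as deposited). Adfp (now Plin2), a coat protein of lipid droplets, ranged from 11.66 to 11.79 in WT and from 12.14 to 12.53 in db/db (difference 0.59, SE 0.042). G0s2, an inhibitor of the lipase Pnpla2, differed by -0.59 (SE 0.064) and Pde3b, the phosphodiesterase through which insulin restrains lipolysis, by -0.71 (SE 0.088), but as deposited these are -0.02 and -0.10 and not called. Cidea, another droplet protein, was also higher and Gpr109a (now Hcar2), a receptor that restrains lipolysis, lower, at 0.59 and -0.74 (named after their values were seen). The call of Aqp7, the glycerol channel (0.54), ended in 7 of the 20 fits without 1 array. In lipid uptake and fatty acid binding, 3 of 12 were higher and 0 lower (median 0.09, or 0.65 with 8 higher and 0 lower as deposited). These were Fabp5 (2.17, SE 0.080, 4.51-fold), a fatty acid binding protein of macrophages and adipocytes, Vldlr (0.88, SE 0.081), the VLDL receptor, and Slc27a4 (0.43, SE 0.079), a fatty acid transporter.

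Among the lists of mitochondrial fuel use, branched chain amino acid breakdown had the most members lower, and as deposited each of these lists had more members higher than lower. Of 20 genes that break down leucine, isoleucine and valine, 0 were higher and 9 (45%) were lower, with a median of -0.29. Dbt, a subunit of the branched chain ketoacid dehydrogenase, ranged from 8.93 to 9.25 in WT (median 9.08) and from 7.91 to 8.29 in db/db (median 8.05), a difference of -1.01 (SE 0.054, adjusted p = 8.6e-13). Mccc2 and Ivd, enzymes of leucine breakdown, differed by -0.95 (SE 0.068) and -0.72 (SE 0.052), and Aldh6a1, of valine breakdown, by -0.71 (SE 0.059). None of these 4 overlapped between the models, which is no separate result, since they had the smallest adjusted p of the list. This direction rests on the scaling: as deposited, 9 of the 20 were higher and 2 lower with a median of 0.26, and Dbt, Mccc2, Ivd and Aldh6a1 were at -0.41, -0.42, -0.12 and -0.18, the last pair not called.

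Of 18 fatty acid oxidation genes 3 were higher and 6 lower (median -0.07, or 0.55 with 11 higher and 0 lower as deposited). Dci (now Eci1), an enoyl-CoA isomerase, differed by -0.77 (SE 0.049) and Echs1, an enoyl-CoA hydratase, by -0.57 (SE 0.052), against -0.26 and 0.03 as deposited, neither of them called there. Cpt1b, the muscle and brown fat form of the enzyme that admits fatty acids to mitochondria, ranged from 5.01 to 5.85 in WT and from 6.26 to 6.83 in db/db (difference 1.03, SE 0.10). Hadha, a subunit of the trifunctional protein, differed by 0.60 (SE 0.062), but its other 4 probe sets included 1 called higher and 1 called lower. The third higher gene was Acaa2, a thiolase, at 0.36 (named after its value was seen). For oxidative phosphorylation, 4 of 27 were higher and 0 lower (median -0.06), or 22 and 0 as deposited (0.47). Cox7b, a subunit of cytochrome oxidase, differed by 1.61 (SE 0.12) from a low level of 1.77 to 2.49 in WT. The other 3, Ndufb3 (0.42), Cox6c (0.41) and Ndufa8 (0.28), were close to the fold asked for. Of 20 TCA cycle genes 2 were higher and 2 lower (median -0.02), or 17 and 0 as deposited (0.53), the higher ones being Dlat and Sucla2 and the lower ones Idh2 and Suclg2, at 0.42, 0.36, -0.26 and -0.86 (named after their values were seen).

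Insulin signaling had more members lower than higher after the quantile step, and the reverse as deposited. Of 18 genes of insulin signaling and glucose transport, 3 were higher and 7 (38.9%) lower, with a median of -0.21. Irs1, the adaptor directly downstream of the insulin receptor, ranged from 9.39 to 9.84 in WT (median 9.52) and from 7.83 to 8.41 in db/db (median 8.26), 2.5-fold lower (difference -1.32, SE 0.061, adjusted p = 4.9e-14). Its relative Irs2 ranged from 7.57 to 8.30 in WT and from 6.56 to 7.14 in db/db (difference -1.01, SE 0.085), and a second probe set of each was also lower. Both adaptors lay apart between the models and remained lower as deposited, at -0.71 and -0.49. Tbc1d4, an Akt substrate that controls the traffic of Slc2a4 vesicles, differed by -0.94 (SE 0.068), or -0.32 and not called as deposited. Slc2a1, the basal glucose transporter, was higher by 0.62 (SE 0.061), as were the kinase Akt1 (0.36) and the pseudokinase Trib3 (0.44), the latter pair named after their values were seen. Irs3, Grb10, Grb14, Pik3ca and Pik3cb, also of the early steps, were not called, at 0.43, 0.08, -0.10, -0.24 and -0.18 (named after their values were seen). As deposited the list turns to 11 higher and 3 lower, with a median of 0.41.

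Glycolysis and cholesterol synthesis had more members higher than lower. Of 15 glycolytic genes, 7 (46.7%) were higher and 1 lower (median 0.18, or 0.69 with 14 higher and 0 lower as deposited). Eno1, enolase, ranged from 11.42 to 11.69 in WT and from 12.03 to 12.38 in db/db (difference 0.71, SE 0.047), Pkm2 (now Pkm), pyruvate kinase, from 10.35 to 10.70 and from 10.93 to 11.50 (0.69, SE 0.065), and Tpi1, triosephosphate isomerase, from 11.59 to 11.92 and from 12.10 to 12.36 (0.49, SE 0.039). These 3 enzymes were each above WT in every array. The call of Tpi1 and of Ldha, lactate dehydrogenase (0.31, SE 0.034), ended under cyclic loess, at 0.31 and 0.08, and that of Ldha also in 5 fits without 1 array. The 1 lower member was the lactate carrier Slc16a1, at -0.59 but not called lower as deposited, while its relative Slc16a3 was higher at 0.88 (both named after their values were seen).

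In cholesterol synthesis, 7 of 18 (38.9%) were higher and 1 lower (median 0.33). The 1 lower member was Hmgcs1, the HMG-CoA synthase of the early pathway, at 10.20 to 10.68 in WT (median 10.49) and 8.49 to 8.87 in db/db (median 8.69). It was 3.46-fold lower (difference -1.79, SE 0.050, adjusted p = 1.1e-17) and apart from WT in all arrays. Later enzymes were higher: Fdft1, squalene synthase, by 0.97 (SE 0.073), Dhcr7, the last reductase, by 0.89 (SE 0.062), and Nsdhl, a sterol dehydrogenase, by 0.88 (SE 0.11), although a second probe set of Fdft1 was called lower at -0.39. The opposite directions of Hmgcs1 and the later enzymes were also present as deposited, at -1.20 against 1.59, 1.47 and 1.27.

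Several genes known from brown fat were higher in db/db EWAT. Of 18 thermogenic and brown fat genes 7 (38.9%) were higher and 1 lower, with a median of 0.42 (0.79 with 9 higher and 0 lower as deposited). Ucp1, the uncoupling protein of brown and beige adipocytes, measured 4.40, 4.19, 4.46, 4.65 and 4.47 in WT at 2 d, 4.59, 4.99, 4.31, 4.55 and 4.26 in WT at 5 d, 6.30, 8.35, 7.32, 6.93 and 6.96 in db/db at 2 d, and 6.72, 5.94, 7.94, 7.11 and 6.64 in db/db at 5 d. The models did not overlap, and the WT arrays were uniformly low. The difference was 2.53 (SE 0.22, adjusted p = 1.4e-09), or 5.79-fold. Dio2, the deiodinase that activates thyroid hormone in brown fat, ranged from 3.84 to 4.48 in WT and from 6.12 to 7.69 in db/db (difference 2.50, SE 0.13), and Otop1 from 3.31 to 4.62 and from 7.78 to 8.80. Kcnk3, a potassium channel of brown adipocytes, was higher by 1.0 (SE 0.091). The other higher members were Cidea (0.59) and Tmem26 (0.95), and the 1 lower member was Ebf2 (-0.43), which was not called lower as deposited. The 10 members not called ran from Zic1 at -0.49 to Ckb at 0.56, with Prdm16 and Ppargc1a at -0.12 and -0.48 and Elovl3 and Cox7a1 both at 0.42 (all named after their values were seen).

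**Figure D3:**
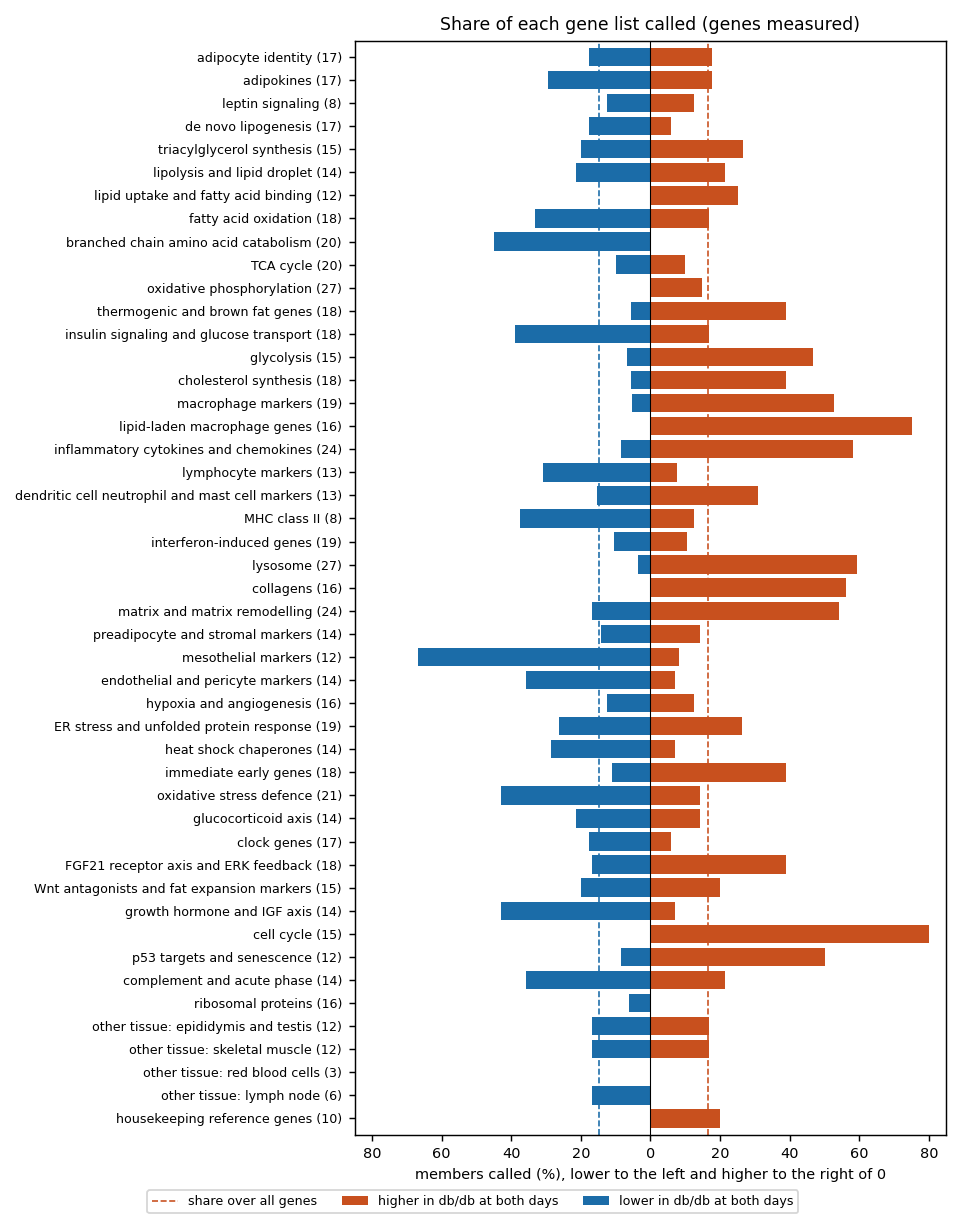
Share of the measured members of each of the 47 gene lists (number measured in brackets) called higher (to the right, %) or lower (to the left, %) in db/db EWAT at both days; dashed lines mark the share over all genes, 16.5% higher and 14.8% lower. Cell cycle (80%) and lipid-laden macrophage genes (75%) reach farthest to the right, and mesothelial markers (66.7%) farthest to the left.

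Macrophage genes were higher, and most of all those of lipid-laden macrophages. Of 16 such genes 12 (75%) were higher and 0 lower, with a median of 1.74. Gpnmb, a glycoprotein of lipid-loaded macrophages, ranged from 8.28 to 9.86 in WT (median 9.01) and from 11.26 to 12.18 in db/db (median 11.88), 7.29-fold higher (difference 2.87, SE 0.15), and its other 4 probe sets were also higher. Itgax (CD11c) ranged from 7.15 to 8.26 in WT and from 9.03 to 10.34 in db/db (1.99, SE 0.16), and Trem2, the lipid receptor of these cells, from 7.30 to 8.35 and from 8.88 to 9.95 (1.80, SE 0.14). For all 3 genes the lowest db/db array lay above the highest WT array. Ctsk, a lysosomal protease, ranged from 6.82 to 7.17 in WT and from 9.10 to 10.63 in db/db, a difference of 2.84 (SE 0.13, adjusted p = 5.4e-14). The 4 members not called were Lpl, Acp5, Cd36 and Cd9, at 0.02, -0.09, -0.31 and -0.42 (named after their values were seen).

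General macrophage markers differed less, with 10 of 19 (52.6%) higher, 1 lower and a median of 0.37 (0.91 with 17 higher and 0 lower as deposited). Ctss, a protease of antigen-presenting cells, ranged from 9.85 to 10.41 in WT and from 11.42 to 12.22 in db/db (difference 1.68, SE 0.080). Mpeg1, a pore-forming protein of macrophages, was higher by 1.16 (SE 0.11), Cybb, the phagocyte oxidase, by 1.10 (SE 0.096), and Fcer1g, the signaling chain of Fc receptors, by 1.0 (SE 0.078). Emr1 (now Adgre1, F4/80), the common macrophage antigen, ranged from 8.14 to 8.75 in WT (median 8.40) and from 8.57 to 9.25 in db/db (median 9.02), a smaller difference of 0.58 (SE 0.074) with overlap between the models. Csf1r, Cd163 and the 3 C1q genes, also macrophage products, were not called, at 0.29, -0.13 and 0.12 to 0.37, and Mrc1, the mannose receptor, was lower at -0.36 (named after their values were seen). Mrc1 was not called lower as deposited. The median over the lipid-laden genes was thus above that over the general markers, as the plot of list members shows.

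**Figure D4:**
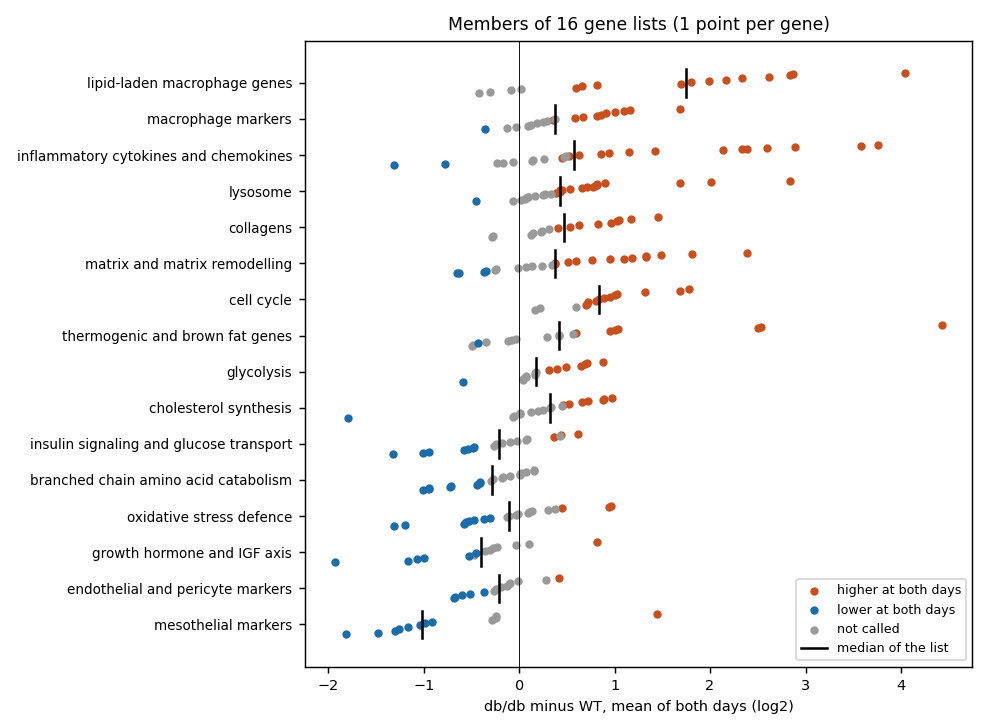
Difference of db/db minus WT (x axis, log2, mean of both days) of each measured member of 16 gene lists (y axis); points are genes, coloured by call, and black bars are list medians. The medians run from 1.74 for lipid-laden macrophage genes to -1.01 for mesothelial markers.

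Inflammatory cytokines and chemokines were mostly higher, with 14 of 24 (58.3%) higher and 2 lower (median 0.57, or 0.9 with 19 higher and 1 lower as deposited). Tnf, the macrophage cytokine, measured 3.26, 3.31, 2.85, 3.13 and 3.36 in WT at 2 d, 3.19, 3.34, 3.33, 2.97 and 3.07 in WT at 5 d, 5.32, 5.83, 5.97, 5.83 and 7.47 in db/db at 2 d, and 6.45, 6.18, 5.65, 5.90 and 6.11 in db/db at 5 d. The db/db arrays were all well above the WT arrays (difference 2.89, SE 0.18, 7.41-fold). Il1rn, the antagonist of the interleukin 1 receptor, was higher by 3.58 (SE 0.15, 11.9-fold), the chemokine Ccl4 by 2.39 (SE 0.15), Ccl8 by 2.33 (SE 0.15) and the monocyte attractant Ccl2 by 1.15 (SE 0.13), each without overlap. Not every such gene was higher. The 2 lower members were Il18, an inflammasome product, and Cxcl9, an interferon gamma target, at -0.78 and -1.31, and Il6 was not called at 0.49 (named after their values were seen).

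Neutrophil genes were higher, while the lymphocyte list had more members lower than higher. The MHC class II list had more members lower after the quantile step and more higher as deposited. Of 13 dendritic cell, neutrophil and mast cell markers, 4 were higher and 2 lower (median -0.11, 0.23 as deposited), and all 4 higher ones are neutrophil genes: S100a8, S100a9, its calprotectin partner (4.0, SE 0.22), Csf3r, the G-CSF receptor (1.18, SE 0.14), and Ngp, a granule protein. Ngp measured 4.32, 4.70, 4.44, 4.07 and 4.34 in WT and 6.23, 5.74, 7.12, 6.77 and 6.49 in db/db at 2 d, and 4.43, 4.04, 4.43, 4.25 and 4.71 in WT and 4.43, 5.20, 4.88, 5.08 and 5.17 in db/db at 5 d. The models were apart at 2 d and overlapped at 5 d, with differences of 2.10 and 0.58, but the test of the difference between days gave an adjusted p of 0.29, and the call at both days ended in 3 fits without 1 array and under cyclic loess. The 2 lower genes were the dendritic cell markers Zbtb46 and Cd209a, at -0.42 and -0.53 (named after their values were seen). As deposited 5 members of the list were higher and 0 lower, so neither was called lower there.

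Of 13 lymphocyte markers 1 was higher and 4 (30.8%) lower, with a median of -0.33 (-0.17 as deposited). Cd3e, a chain of the T cell receptor complex, ranged from 6.35 to 7.16 in WT and from 5.03 to 5.99 in db/db (difference -1.11, SE 0.12). Cd3g, another such chain, differed by -0.71 (SE 0.12) with overlap, and Cd2, a T and NK cell adhesion protein, by -0.70 (SE 0.12), the latter not called as deposited at -0.27. Klrb1c, a receptor of NK cells, was also lower, at -0.48 (named after its value was seen). Foxp3, the factor of regulatory T cells, was the 1 member called higher, by 0.38 (SE 0.058). The list of 6 lymph node genes had 0 higher and 1 lower, the chemokine Ccl21a at -1.88 (named after its value was seen), and a summed intensity of 1132 to 1921 in WT and 540 to 1124 in db/db, whose part in the lower lymphocyte genes was not tested.

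Of 8 MHC class II genes 1 was higher and 3 (37.5%) lower (median -0.22, or 0.14 with 3 higher and 1 lower as deposited). H2-Aa, the alpha chain of molecule A, ranged from 11.04 to 11.68 in WT (median 11.36) and from 8.65 to 9.20 in db/db (median 8.94), 5.4-fold lower (difference -2.43, SE 0.077, adjusted p = 1.1e-16). The lower values of H2-Eb1 (-0.53) and of the invariant chain Cd74 (-0.33) were not called as deposited (-0.07 and 0.04), and the partner of H2-Aa, H2-Ab1, was not called at -0.26 (named after its value was seen). H2-DMa, which loads peptides, was higher by 0.63 (SE 0.095). H2-Aa and H2-Ea, both class II alpha chains, thus differed in opposite directions, and since H2 genes vary in sequence between strains, a difference in sequence cannot be told apart from one in RNA here. Of 19 interferon-induced genes 2 were higher (Stat2 0.45 and Mx2 0.70) and 2 lower (Ifit3 -0.67 and Ifi44 -0.56), with a median of -0.13, or 10 higher and 0 lower with 0.40 as deposited (these 4 named after their values were seen).

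Lysosomal genes were higher, with 16 of 27 (59.3%) higher, 1 lower and a median of 0.43. Lysosomes break down material taken up by cells, and many of their genes are known to share a promoter element, bound by TFEB, whose core is the palindrome TCACGTGA. Of the 24 measured genes that the RefSeq promoter table (GRCm38.p6, 300 bases around each start) holds, 5 have these letters on either strand in a window, against 320 of 32851 windows (0.974%) of that length. Of these 5, 4 were higher and 0 lower, and Atp6v0d1 was not called. Of the other 19, 10 were higher and 1 lower, so that the higher genes were not limited to those with the letters. The windows of the 4 genes are shown so that the element can be seen beside the values, 5′ to 3′ on the gene's strand, with the palindrome in capitals: Gla at chrX:134600956-134601255 (minus strand), Ctsd at chr7:142387778-142388077 (minus strand), Ctsa at chr2:164833523-164833822 (plus strand) and Mcoln1 at chr8:3500269-3500568 (plus strand).
Gla: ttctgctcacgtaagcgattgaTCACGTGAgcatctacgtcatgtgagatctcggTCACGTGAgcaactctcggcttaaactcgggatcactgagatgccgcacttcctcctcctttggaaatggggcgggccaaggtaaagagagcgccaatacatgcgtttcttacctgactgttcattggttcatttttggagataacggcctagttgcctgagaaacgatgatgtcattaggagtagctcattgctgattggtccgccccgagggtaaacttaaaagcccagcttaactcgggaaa
Ctsd: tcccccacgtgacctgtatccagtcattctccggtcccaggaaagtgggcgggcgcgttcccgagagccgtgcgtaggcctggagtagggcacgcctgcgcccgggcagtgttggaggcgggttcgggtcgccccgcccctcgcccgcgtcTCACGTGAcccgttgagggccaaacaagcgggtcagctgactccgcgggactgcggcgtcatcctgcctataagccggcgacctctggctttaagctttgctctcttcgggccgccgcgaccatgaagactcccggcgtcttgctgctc
Ctsa: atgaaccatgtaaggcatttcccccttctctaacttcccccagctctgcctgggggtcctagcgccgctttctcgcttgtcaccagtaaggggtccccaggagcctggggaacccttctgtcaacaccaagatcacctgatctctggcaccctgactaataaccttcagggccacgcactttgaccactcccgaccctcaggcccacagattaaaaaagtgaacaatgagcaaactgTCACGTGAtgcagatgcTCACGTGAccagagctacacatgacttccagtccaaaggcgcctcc
Mcoln1: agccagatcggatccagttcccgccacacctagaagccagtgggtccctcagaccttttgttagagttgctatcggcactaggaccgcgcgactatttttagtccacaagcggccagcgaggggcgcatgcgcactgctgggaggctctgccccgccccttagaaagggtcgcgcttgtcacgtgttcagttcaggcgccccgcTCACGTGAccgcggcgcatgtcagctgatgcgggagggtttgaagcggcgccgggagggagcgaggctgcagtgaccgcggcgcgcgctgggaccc

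The palindrome stands 2 times in the Gla window, 2 times in that of Ctsa and 1 time in each of the others, and a match of letters is a description and not a bound site. Gla, the alpha-galactosidase, ranged from 5.32 to 5.79 in WT (median 5.41) and from 7.03 to 8.01 in db/db (median 7.54), 4.02-fold higher (difference 2.01, SE 0.093). Ctsd, the main aspartic protease of lysosomes, ranged from 11.90 to 12.09 in WT (median 11.99) and from 12.60 to 12.69 in db/db (median 12.66), a difference of 0.66 (SE 0.025). Both were apart between the models. Ctsa, protective protein and cathepsin A, ranged from 6.04 to 6.30 in WT and from 6.30 to 7.08 in db/db (0.43, SE 0.078), and Mcoln1, a lysosomal calcium channel, from 9.64 to 10.03 and from 10 to 10.51 (0.43, SE 0.058), so that these last 2 met or overlapped at the edge. The 1 lower member of the list was Glb1, the beta-galactosidase, at -0.45 (named after its value was seen). As deposited 25 members of the list were higher and 0 lower, so Glb1 was not called lower there.

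Collagens and matrix genes were higher. Of 16 collagen genes 9 (56.2%) were higher and 0 lower (median 0.47). Col1a1, the main fibrillar collagen, ranged from 11.16 to 11.62 in WT and from 12.12 to 12.60 in db/db (difference 1.05, SE 0.054, 2.06-fold), Col5a1, a regulator of fibril diameter, differed by 1.17 (SE 0.061), and the basement membrane chains Col4a2 and Col4a1 by 0.63 (SE 0.031) and 0.41 (SE 0.021). None of the 4 overlapped, although the call of Col4a1 ended under cyclic loess, at 0.14. Among 24 matrix and remodelling genes 13 (54.2%) were higher and 4 lower (median 0.38, or 0.93 with 18 higher and 0 lower as deposited). Timp1, an inhibitor of metalloproteinases, ranged from 6.90 to 7.61 in WT (median 7.15) and from 9.21 to 10.06 in db/db (median 9.55), 5.23-fold higher (difference 2.39, SE 0.099, adjusted p = 9.3e-15). Lox, which crosslinks collagen, was higher by 1.49 (SE 0.087) and Tnc, a matrix protein of wounds, by 1.33 (SE 0.098). Sparc, a collagen-binding protein, was higher by 0.38 (SE 0.021), but by 0.02 and not called under cyclic loess. The 4 lower members were Timp2, Dcn, Mmp9 and Timp3, at -0.35, -0.37, -0.63 and -0.65 (named after their values were seen). None of them was called lower as deposited. The calls of the inhibitors Timp1 and Timp3 in opposite directions thus rest on the scaling.

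Among other cells of the depot, mesothelial markers were lower. The mesothelium is the sheet of cells that covers the visceral fat pads. Of 12 markers 1 was higher and 8 (66.7%) lower, with a median of -1.01 (-0.44 as deposited, with 1 higher and 2 lower), and their summed intensity was 5295 to 8223 in WT and 2243 to 4588 in db/db. Upk3b, a surface protein of these cells, ranged from 10.41 to 10.83 in WT (median 10.73) and from 8.07 to 9.27 in db/db (median 8.97), 3.52-fold lower (difference -1.81, SE 0.11). Muc16, a surface mucin, ranged from 7.38 to 8.50 in WT and from 5.80 to 6.67 in db/db (-1.48, SE 0.11), and Krt19, a keratin of simple epithelia, from 10.11 to 10.91 and from 8.71 to 10.02 (-1.16, SE 0.12, or -0.56 and not called as deposited). Each of these 3 was below WT in all db/db arrays. Krt14, a keratin of stratified epithelia, was the 1 gene called higher, by 1.44 (SE 0.13), and Msln, the marker that names the cell type, was not called at -0.24 (named after its value was seen).

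Endothelial and pericyte markers had 1 of 14 higher and 5 (35.7%) lower (median -0.22), but as deposited 8 were higher and 0 lower (0.38). The endothelial cadherin Cdh5 differed by -0.67 (SE 0.048), the clotting factor carrier Vwf by -0.68 (SE 0.072), the angiopoietin receptor Tek by -0.52 (SE 0.060) and the smooth muscle gene Tagln by -0.60 (SE 0.088). As deposited these 4 were at -0.05, -0.06, 0.10 and -0.04, and none was called, so their direction rests on the scaling. The VEGF receptor Flt1 was the fifth lower gene at -0.37 and the pericyte marker Cspg4 the 1 higher gene at 0.42 (named after their values were seen). Of 16 hypoxia and angiogenesis genes 2 were higher and 2 lower (median -0.02, or 0.51 with 9 higher and 1 lower as deposited). Angpt1, the ligand of Tek, ranged from 6.10 to 7.76 in WT and from 4.66 to 5.26 in db/db (difference -1.80, SE 0.16, -1.52 as deposited). Vegfa, the main endothelial growth factor, differed by -0.92 (SE 0.060, or -0.33 and not called as deposited) and Car9, a carbonic anhydrase induced by hypoxia, by 1.48 (SE 0.13). Of 14 preadipocyte and stromal markers 2 were higher and 2 lower (median -0.18, or 0.39 with 7 higher and 0 lower as deposited). Wisp2 (now Ccn5), a secreted factor of stromal cells, was higher by 1.52 (SE 0.099) and the mural cell receptor Pdgfrb by 0.55 (SE 0.062), while the progenitor markers Ly6a (-0.57, SE 0.050) and Dpp4 (-0.70, SE 0.11) were lower but not called as deposited, at -0.05 and -0.40.

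Cell cycle genes had the largest share called of the 47 lists, with 12 of 15 (80%) higher, 0 lower and a median of 0.84. Birc5 (survivin), a protein of dividing cells, ranged from 2.98 to 4.34 in WT (median 3.55) and from 4.84 to 5.86 in db/db (median 5.48), a difference of 1.78 (SE 0.15). Bub1, a mitotic checkpoint kinase, ranged from 2.86 to 3.45 in WT and from 4.25 to 5.13 in db/db (1.68, SE 0.11), Mcm2, part of the replication helicase, from 5.27 to 5.98 and from 6.26 to 6.62 (0.84, SE 0.069), and Tyms, thymidylate synthase, from 6.26 to 6.73 and from 7.04 to 7.42 (0.80, SE 0.058). All 4 were apart between the models at low to moderate levels, but a second probe set of Tyms was called lower at -0.43. Of 12 p53 targets and senescence genes, 6 (50%) were higher and 1 lower (median 0.34). Cdkn1a (p21), a cell cycle inhibitor, ranged from 9.37 to 10.21 in WT and from 10.54 to 11.06 in db/db (difference 1.03, SE 0.078). Gadd45b and Gadd45a, stress-induced growth regulators, were higher by 0.87 (SE 0.086) and 0.66 (SE 0.085), the latter losing its call in 2 fits without 1 array, and Sesn2, a stress sensor, was lower by -0.56 (SE 0.078), or -0.10 and not called as deposited.

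Stress genes differed in both directions after the quantile step. Of 19 genes of ER stress and the unfolded protein response, 5 were higher and 5 lower (median 0.07, or 0.47 with 13 higher and 2 lower as deposited). Pdia4, a disulfide isomerase of the ER, ranged from 11.65 to 11.87 in WT (median 11.78) and from 9.81 to 10.42 in db/db (median 10.21), 2.97-fold lower (difference -1.57, SE 0.057, adjusted p = 9.3e-16), while its relative Pdia6 was higher by 0.80 (SE 0.063). Asns, asparagine synthetase, differed by -1.37 (SE 0.056) and Atf3, a stress-induced transcription factor, by 1.68 (SE 0.12). The directions of Pdia4, Pdia6, Asns and Atf3 held as deposited, at -1.07, 1.35, -0.75 and 2.28. The other higher members were Ddit3 (0.45), Sdf2l1 (0.76) and Trib3 (0.44), and the other lower ones Xbp1 (-0.35), Creld2 (-0.35) and Calr (-0.48), all named after their values were seen. Of 18 immediate early genes 7 (38.9%) were higher and 2 lower (median 0.47), the lower ones being Myc (-1.11, SE 0.10) and Jun (-0.70, SE 0.063, or -0.11 and not called as deposited). Ier2, another such gene, was higher by 0.61 (SE 0.059).

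Of 14 heat shock chaperones 1 was higher and 4 (28.6%) lower (median -0.08, 0.40 as deposited with 9 higher and 1 lower). Cryab, a small heat shock protein, ranged from 9.93 to 11.36 in WT and from 11.97 to 12.32 in db/db (difference 1.29, SE 0.091). Hspa1b and Hspa1a, near-identical forms of HSP70 that may share signal, differed by -1.01 (SE 0.13) and -0.72 (SE 0.073), or by -0.61 and -0.31 as deposited. Dnaja1, their cochaperone, differed by -0.61 (SE 0.071), or 0.01 as deposited, and Hspa4l, an HSP110 relative, by -0.47 (named after its value was seen). Of 21 oxidative stress defence genes 3 were higher and 9 (42.9%) lower (median -0.11), but as deposited 11 were higher and 2 lower (0.35). Nnt, the mitochondrial transhydrogenase, ranged from 9.66 to 9.89 in WT (median 9.77) and from 8.30 to 8.66 in db/db (median 8.48), a difference of -1.31 (SE 0.047). Gpx3, the secreted glutathione peroxidase, ranged from 12.34 to 12.50 in WT and from 10.94 to 11.51 in db/db (-1.20, SE 0.051). Both were apart from WT in all arrays and also lower as deposited, at -0.70 and -0.81, while Srxn1, a sulfiredoxin, and Prdx6, a peroxiredoxin, were higher by 0.94 (SE 0.062) and 0.45 (SE 0.034). The third higher member was Hmox1, heme oxygenase 1, at 0.96 (named after its value was seen).

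Among hormone pathways, the growth hormone and IGF axis had 1 of 14 genes higher and 6 (42.9%) lower, with a median of -0.40, but 0.11 with 2 higher and 4 lower as deposited. Igfals, the acid-labile subunit that carries IGFs in blood, ranged from 8.35 to 9.24 in WT (median 9.02) and from 6.69 to 7.36 in db/db (median 7.01), 3.8-fold lower (difference -1.93, SE 0.089). Igfbp6, an IGF binding protein, differed by -1.07 (SE 0.070) and Socs2, a growth hormone-induced inhibitor, by -1.0 (SE 0.070), or by -0.50 and -0.44 as deposited. Igfbp3, the main IGF carrier, was the 1 gene called higher, by 0.81 (SE 0.067). The growth hormone receptor Ghr and Igf1 itself were not called, at -0.27 and -0.31 (named after their values were seen).

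In the FGF21 receptor axis and ERK feedback list, 7 of 18 (38.9%) were higher and 3 lower (median 0.09, or 0.55 with 11 higher and 0 lower as deposited). Klb, the coreceptor that FGF21 needs, ranged from 8.78 to 9.62 in WT (median 9.27) and from 8.39 to 8.84 in db/db (median 8.60), a difference of -0.64 (SE 0.082) with overlap at 1 day only and a value of -0.02, not called, as deposited. Its partner receptor Fgfr1 was not called, at -0.03 (SE 0.056, 0.49 as deposited). The receptor Fgfr2 and the ERK inhibitor Spred2 were the other lower members, at -1.12 and -0.63 (named after their values were seen), neither of them called lower as deposited. Etv5 and Etv4, transcription factors induced by FGF signaling, were higher by 0.67 (SE 0.054) and 0.67 (SE 0.075), the latter at levels near background (2.35 to 3.47), and Maff, a stress-induced bZIP factor, by 1.03 (SE 0.13).

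Of 14 genes of the glucocorticoid axis 2 were higher and 3 lower (median 0.01, or 0.43 with 7 higher and 0 lower as deposited). Hsd11b1, which regenerates active glucocorticoid in fat, was higher by 0.63 (SE 0.062), while the glucocorticoid receptor Nr3c1 differed by -0.92 (SE 0.080) and its target Zbtb16 by -0.89 (SE 0.088), or by -0.30 and -0.29, not called, as deposited. Nr3c2, the mineralocorticoid receptor, differed by -0.39 (SE 0.057), but 0.11 as deposited, and its call ended in 4 fits without 1 array. The metallothionein Mt2 was the other higher gene, at 0.63 (named after its value was seen). Of 17 clock genes 1 was higher (Cry1 0.54) and 3 lower (Per3 -0.91, Nr1d1 -0.72 and Nr1d2 -0.62). These 4 were named after their values were seen. The list had a median of -0.15, or 0.37 with 7 higher and 1 lower as deposited. Negr1, a neuronal adhesion molecule linked to body weight, ranged from 7.47 to 8.26 in WT and from 5.68 to 6.37 in db/db (difference -1.85, SE 0.091).

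Of 14 complement and acute phase genes 3 were higher and 5 (35.7%) lower (median -0.10). As deposited 6 were higher and 1 lower (median 0.22). C2, a protease of the classical complement pathway, ranged from 9.0 to 9.67 in WT (median 9.26) and from 6.46 to 7.23 in db/db (median 6.94), 5.29-fold lower (difference -2.40, SE 0.093, adjusted p = 2.8e-15). C4b, its partner in that pathway, differed by -0.73 (SE 0.077) and the copper carrier Cp by -0.88 (SE 0.088), neither called as deposited, while Lbp, which presents bacterial lipopolysaccharide, was higher by 0.75 (SE 0.062). The acute phase genes Saa3 (1.54) and Orm1 (0.55) were the other higher members, and the complement proteases Cfb (-0.49) and C1r (-0.47) the other lower ones (named after their values were seen).

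Lists of other tissues and of reference genes were read beside these differences. Of 12 skeletal muscle genes 2 were higher (Tnni2 0.41 and Tnnc2 0.64) and 2 lower (Mb -0.42 and Myh1 -0.76), with a median of 0.09 (named after their values were seen), and of 3 red blood cell genes 0 were called. The sperm protamines and transition proteins, which are made in the testis, reached 9.09 (Prm1), 11.43 (Prm2), 8.40 (Tnp1) and 9.22 (Tnp2) in WT arrays and at most 4.88 in db/db arrays, and none of the 4 was called. Of the 12 epididymis and testis genes 2 were higher (Rnase10 1.36 and Svs2 0.61) and 2 lower (Spink2 -1.39 and Lcn5 -0.69), named after their values were seen, and Crisp1, a defining epididymal gene, was at 1.25 to 1.91 in all arrays. Xist, the RNA of the inactive X chromosome, was at 2.27 to 3.91 in all arrays. Of 16 ribosomal protein genes 0 were higher and 1 lower (Rpl5 -0.43, median 0.04, or 9 higher and 0 lower as deposited), and of 10 housekeeping genes 2 were higher (Arbp 0.40 and Gusb 0.90) and 0 lower (median 0.16, or 6 and 0 as deposited), these 3 named after their values were seen.

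The retroperitoneal depot (RPWAT) of the same groups was set against EWAT to show where the db/db difference was particular to the epididymal depot. It has 18 arrays, with 3 in place of 5 for WT at 5 d, and all 38 arrays were quantile-normalized together. The labels do not link depots of a mouse. Of 43681 probe sets, 4353 (9.97%) had a db/db difference in EWAT above that in RPWAT and 4154 (9.51%) one below it, or 2079 (9.48%) and 1972 (8.99%) of 21931 genes. This split also rests on the scaling, since as deposited 20034 probe sets were above and 1039 below.

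The brown fat genes parted the depots. Otop1 lay between 3.27 and 4.63 in the 10 WT EWAT arrays and between 7.89 and 8.92 in the 10 db/db EWAT arrays, but between 5.76 and 10.76 in the 8 WT RPWAT arrays and between 7.55 and 9.05 in the 10 db/db RPWAT arrays. Most WT RPWAT arrays thus lay at or above the level that EWAT showed in db/db, and the difference of -0.50 in RPWAT against 4.58 in EWAT under the joint scaling gave an EWAT minus RPWAT value of 5.08 (adjusted p = 1.2e-07). Ucp1 behaved alike, at 4.18 to 5.01 in WT EWAT, 6.00 to 8.46 in db/db EWAT, 5.77 to 12.53 in WT RPWAT and 8.43 to 10.85 in db/db RPWAT. The EWAT minus RPWAT value was 3.61 (adjusted p = 0.00077), and for Dio2 it was 3.07 (adjusted p = 0.00027). For all 3 genes WT RPWAT spread over more than 4 log2 units, the lowest array being at 2 d. Of the 18 thermogenic genes 6 had a larger db/db difference in EWAT and 0 a smaller one (median 0.49), and their median difference in RPWAT was -0.49.

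Mrgprg, an orphan receptor of the Mas family, followed the same pattern, with a difference of 3.74 in EWAT and 0.51 in RPWAT under the joint scaling and an EWAT minus RPWAT value of 3.23 (adjusted p = 2.4e-08). H2-Q10, a class I gene, reached 3.59 (adjusted p = 0.0016) from the other side, being lower in db/db RPWAT, with medians of 2.63 and 2.67 at the 2 days and the highest arrays at 8.15 and 6.83, against 7.03 to 8.50 in WT RPWAT, and not called in EWAT (-0.42). Among the 5 lowest EWAT minus RPWAT values, Adh7, Lcn2 and Nr0b1 had their larger difference in RPWAT (2.47, 3.38 and 2.36, against -0.55, 0.99 and 0.03 in EWAT). Lrrn1 was lower in db/db EWAT (-1.81) and not called in RPWAT (1.08, adjusted p = 0.093), and Klhl14 was at -1.06 and 1.57. Adh7, an alcohol dehydrogenase of epithelia, was at -3.02 (adjusted p = 0.0001), with 2.42 to 3.95 in all EWAT arrays, 4.80 to 5.66 in WT RPWAT and 4.05 to 8.94 in db/db RPWAT. Its small call in EWAT (-0.54) ended in 5 fits without 1 array. Lcn2, lipocalin 2 of neutrophils and inflamed fat, was at -2.39 (adjusted p = 0.00025), and its WT levels set the depots apart, with 7.44 to 10.36 in EWAT and 5.75 to 6.66 in RPWAT against 9.38 to 10.56 and 8.46 to 10.09 in db/db. Lrrn1, a neuronal membrane protein, Klhl14, a ubiquitin ligase adaptor, and Nr0b1, an orphan nuclear receptor, were at -2.89, -2.63 and -2.33, with db/db RPWAT arrays spread over 3.19 to 7.16 for Nr0b1 and 2.75 to 9.09 for Lrrn1, so that the db/db RPWAT arrays differed widely among themselves.

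**Figure D5:**
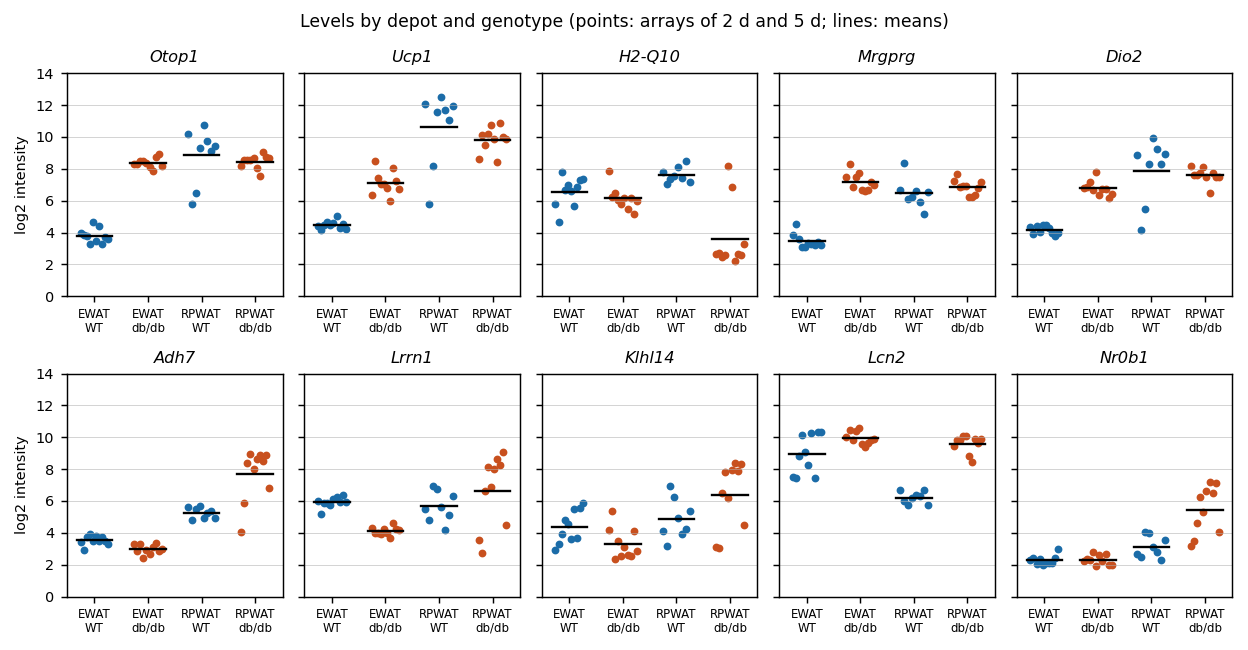
Log2 intensity (y axis) of the 5 genes with the highest (upper row) and the 5 with the lowest (lower row) EWAT minus RPWAT value of the db/db difference, by depot and model (x axis); points are arrays of both days, lines the means. For Otop1, Ucp1 and Dio2 WT EWAT is low while most WT RPWAT arrays are at or above the db/db EWAT level, and for Adh7, Lrrn1, Klhl14 and Nr0b1 the db/db RPWAT arrays spread upwards.

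Several gene groups differed from WT in RPWAT as well. Lipid-laden macrophage genes had a median difference of 1.85 in RPWAT and 1.74 in EWAT, with 4 of 16 larger and 2 smaller in EWAT, lysosomal genes 0.48 and 0.43 with 4 and 2 of 27, and cell cycle genes 0.97 and 0.88 with 2 and 3 of 15. H2-Ea and Mcpt2 differed by 6.53 and 6.25 in RPWAT, with EWAT minus RPWAT values that were not called (-0.14 and -0.10), and Thumpd1 by -7.80, with a small EWAT minus RPWAT value of -0.42 that was called (adjusted p = 0.0028). Among the 24 cytokines and chemokines, 4 had a larger EWAT minus RPWAT value and 0 a smaller one, Tnf among the 4 at 1.10 (adjusted p = 0.0031). Outside that list, Olr1 was at 1.04 (adjusted p = 0.00018) and Irg1 at 1.54 (adjusted p = 0.033). Mesothelial markers had a median of -1.02 in EWAT and -0.42 in RPWAT under the joint scaling, with Krt19 called farther below WT in EWAT (-1.04, adjusted p = 0.02) and Krt14 farther above (0.78, adjusted p = 0.0066), while Upk3b and Muc16 were not called between depots (-0.30 and -0.02). The glycolytic enzyme Eno1 differed by 0.69 in EWAT and 0.03 in RPWAT (EWAT minus RPWAT 0.65, adjusted p = 8.7e-07), and Myc by -1.13 in EWAT and 0.01 in RPWAT (EWAT minus RPWAT -1.14, adjusted p = 4.6e-05).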

How the data were processed

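RNA of each tissue was amplified and hybridized to 1-colour custom mouse Affymetrix arrays, and the authors summarized probe sets by RMA in Rosetta Resolver (version not given in the sources used here). The deposited value table holds linear RMA intensity, from 1.74 to 12100 in the arrays used. Of its columns, 38 were used (20 of EWAT, 18 of RPWAT) and 430 were not. Intensities were taken to log2 and quantile-normalized over the compared arrays with limma 3.58.1 (R 4.3.3), and 4 group means were fitted over all 43681 probe sets with no filter (lmFit and eBayes with a trend), giving db/db minus WT at 2 d, at 5 d, their mean and their difference. RPWAT was added in a fit of 8 groups. Calls needed a Benjamini-Hochberg adjusted p under 0.05 over all probe sets and a fold of at least 1.2, the fold used in the methods, whose present-call filter and ANOVA were not the main test. Genes were named from the platform annotation (30342 probe sets with 1 symbol, 30241 of them found in RefSeq GRCm38.p6, 21931 symbols), using the probe set of highest mean level.

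Named genes were the 15 highest and 15 lowest genes called at both days without overlap, up to 4 members per list by smallest adjusted p (10 lists by counts only), a fixed set of adipose genes, and the 5 highest and 5 lowest EWAT minus RPWAT genes. Other genes are marked as named after their values were seen. The gene lists, the comparison and the genes were chosen with earlier results of these data known. Replicates are mice by the labels, nothing in which says more of their origin, so p-values measure the spread between these arrays, whose number limits the precision. The fits were tested on simulated arrays in which few probe sets changed and the models shared the same distribution. That test does not bear on the scaling. Alternatives were other scalings, a filter at the median level, the mean of a gene's probe sets, separate days, no trend, array weights, a replicate block, a fold of 2, the methods' ANOVA and leaving out each array.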

Additional observations from a re-analysis of the deposited data

Results flagged for a closer look

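In 45 of 740 sets of 5 arrays (185 named genes in 4 groups), a single array stood far from the other 4 relative to the group's range, where chance gives about 1 in 20. Values are log2 intensity. In the WT arrays at 2 d, 1 array was high for Pgd (9.96, replicate 3), Pde3b (9.89, replicate 1), Vldlr (9.0, replicate 1), Ctsd (12.09, replicate 1), Cd2 (7.49, replicate 2), Hspa1b (7.17, replicate 3), Klb (9.41, replicate 1) and Mest (10.93, replicate 2). In the WT arrays at 2 d, 1 array was low for Cd74 (11.93, replicate 3), Muc16 (7.38, replicate 4), D430015B01Rik (8.81, replicate 2) and Lrrn1 (5.15, replicate 2). In the WT arrays at 5 d, 1 array was high for Gpam (11.91, replicate 4), Col4a1 (12.21, replicate 3), Hspa1b (8.18, replicate 1), Myc (8.37, replicate 5) and Pparg (10.83, replicate 3). In the WT arrays at 5 d, 1 array was low for Cdsn (8.74, replicate 4), Lep (11.68, replicate 4), Tbc1d4 (8.94, replicate 5), Mpeg1 (9.51, replicate 2), H2-Aa (11.04, replicate 4), Lox (8.85, replicate 4), Upk3b (10.41, replicate 2) and Itgax (7.15, replicate 4). In the db/db arrays at 2 d, 1 array was high for Cyp2b9 (9.42, replicate 1), Csf3r (7.01, replicate 5), Gpx3 (11.51, replicate 2) and Gadd45a (10.19, replicate 1). In the db/db arrays at 2 d, 1 array was low for 2010016I18Rik (2.68, replicate 2), Fabp5 (8.11, replicate 1), Hmgcs1 (8.49, replicate 4), H2-Eb1 (10.78, replicate 1), Muc16 (6.18, replicate 4) and Prdx6 (11.79, replicate 5). In the db/db arrays at 5 d, 1 array was high for 2010016I18Rik (4.22, replicate 2), E130307A14Rik (2.61, replicate 4), Slc2a1 (9.37, replicate 5), Col4a1 (12.63, replicate 3) and Hspa1a (6.35, replicate 2). In the db/db arrays at 5 d, 1 array was low for Aacs (7.24, replicate 1), Fcer1g (10.67, replicate 4), Mpeg1 (10.66, replicate 4), Sparc (13.13, replicate 5) and Nnt (8.35, replicate 3).

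The db/db minus WT difference itself differed between EWAT and RPWAT, by the test of that difference, for Otop1 (5.08), Ucp1 (3.61), H2-Q10 (3.59), Mrgprg (3.23), Dio2 (3.07), Adh7 (-3.02), Lrrn1 (-2.89), Klhl14 (-2.63), Lcn2 (-2.39) and Nr0b1 (-2.33), on the log2 scale and under the joint scaling of 38 arrays.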

How the results depend on the processing

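The calls at 2 d, 5 d, both days, between days and between depots numbered 18444, 17718, 13505, 0 and 8507. Under the filter on low levels they were 10933, 10285 and 8274 for the first 3, at a fold of 2 they were 2965, 2641 and 1980, and with the mean of a gene's probe sets 9047, 8774 and 6640, over fewer features by construction in the first and last case. Cyclic loess and the filter each gave 1 call between days, an unnamed probe set. As deposited 21073 were called between depots. Leaving out each array gave 17038 to 18581, 16614 to 17860, 12737 to 13392, 0 to 1 and 7223 to 8795. The methods' ANOVA without its present filter gave 19100, 18052 and 13622 calls at an unadjusted p, and 16647, 15125 and 11336 after Benjamini-Hochberg. Same-numbered arrays of a day did not deviate together (correlations of -0.22 to 0.25), which gave no sign of pairing by number. For same-numbered EWAT and RPWAT arrays the consensus correlation was 0.0363. A replicate block gave 17974, 17197, 13131, 0 and 8883 calls.

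Genes whose difference turned sign, as deposited and with a shift of medians, were Fads1 (0.08 and 0.00), Tek (0.10 and 0.02), Nr3c2 (0.11 and 0.04), Pparg (0.45 and 0.38), Slc2a4 (0.30 and 0.23), Fgfr1 (0.49 and 0.42), Fasn (0.19 and 0.11) and Nr0b1 (-0.06 and -0.14). As deposited alone, Echs1 (0.03), Cd74 (0.04) and Dnaja1 (0.01) turned too. Fgf21, near 0, was at -0.04 after the shift, -0.02 with array weights and -0.03 to 0.05 without 1 array, and Nr0b1 at -0.03 to 0.11. The cause was not tested. As deposited, 26 single-gene results lost their call in the same direction and 158 kept their direction and their side of the threshold, called or not, and 24 lost it after the shift of medians.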

Other observations

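Genes with at least a 2-fold difference at both days were 1016 of 21445 genes with a place in RefSeq (4.74%), but in some runs of 20 neighbouring genes, chosen after their values were seen, they made up a larger share, with no test of that difference. On chromosome 17, the run from Aif1 to Cdsn within the H2 complex held 7 of 20. Tnf, Lta (lymphotoxin, 1.98) and H2-Q5 (1.60) were higher there, while Lst1 (-1.96), H2-Q7 (-1.21) and Cdsn (-5.40) were lower, so that neighbours differed in opposite directions. The count of 7 also holds H2-Q2, but the probe set annotated with that symbol was not called, at 0.1, so no direction is given for it. A second probe set of H2-Q7 was not called either, at 0.1. On chromosome 6, a run ending at Clec4e held 7 of 20, among them the C-type lectins of myeloid cells Clec4a2 (1.09), Clec4n (2.02), Clec4d (3.20) and Clec4e (3.70), all higher, and the glucose transporter Slc2a3 (-1.07), which was lower. The shares by autosome ran from 2.45% to 5.94%.

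The class I gene H2-D1 has 7 probe sets that disagree. Those called higher differed by 8.29, 3.33 and 0.79, those called lower by -0.45, -0.65 and -2.51, and 1 was not called at -0.24. No direction is given for this gene.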
